A study of Mus musculus with 17 samples.

Results

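Potassium channel genes are described here as the genes of the merged count table whose symbol starts with Kcn, 95 of its 23284 genes. The prefix takes in pore-forming subunits, auxiliary subunits and 1 non-coding RNA, Kcnq1ot1. Single cells of the hypothalamus were profiled by Drop-seq, a droplet method that counts captured polyA transcripts by unique molecular identifier (UMI), in 17 libraries from 8 B6D2F1 mice, the hybrids of a C57BL6 mother and a DBA2 father. The 5 normal mice had food, and the 3 food-deprived mice went without food for 24 hours. No allele, transgene or other agent is given for either group, and the labels used here give no age. The libraries fall into 5 batches, of which batches 1 and 2 each hold 1 mouse of either feeding state. Normal replicates 1 and 2 are batch 0, normal replicate 5 is batch 3, and food-deprived replicate 3 is batch 4.

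Potassium channels let potassium leave the cell and so hold the membrane near its resting potential, end action potentials and set firing rates. Voltage-gated channels (Kv families, Kcna to Kcnd, Kcnh and Kcnq) open on depolarization, inward rectifiers (Kir, Kcnj) pass current best at negative potentials, two-pore-domain channels (K2P, Kcnk) carry background current, and the BK and SK channels (Kcnma1, Kcnn) are opened by calcium. Auxiliary subunits such as the Kv beta (Kcnab), KChIP (Kcnip), BK beta (Kcnmb) and MinK-related (Kcne) proteins change their gating or surface level. In glia, the inward rectifier encoded by Kcnj10 is known for taking up the potassium that active neurons release. In the hypothalamus, potassium channels are known as points where hormones, peptides and nutrients change the firing of feeding neurons.

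The deposited cluster name of each cell (SVM_clusterID) was used as given. Of the annotated cells, 14276 were joined to 1 library and 161 were left out, and 120 barcode sequences occurred in more than 1 library. The cells held 129 to 3639 per mouse and 290861 to 12570644 UMIs per mouse, with 19 to 499 neurons. Levels are CPM, the UMIs of a gene scaled to a fixed total, of a cluster in a mouse, averaged over mice with at least 10 cells of that cluster and given as mean ± SD. Drop-seq counts a molecule once, near its 3′ end, so no scaling by length was made, and genes also differ in how well they are captured. A cluster was used if 2 or more mice had 10 cells and it held 100000 UMIs, which left 15 of 34 neuronal clusters (10 named GABA, 5 named Glu) and 11 of 12 non-neuronal ones. The 2309 cells of the unnamed remainder (zothers) were left out of the categories. Since the clusters were made from these cells, differences between clusters are descriptions without a test. Libraries were of 2 kinds, 9 with Gapdh at 4.249 to 8.195 CPM and 8 with Gapdh at 146 to 807 CPM. They are called depleted and retained here, names given by a Gapdh cut at 50 CPM and not by the labels used. In the 2 food-deprived mice with both kinds, 1 of 55 Kcn genes with at least 20 neuronal UMIs, Kcnh7, differed 2-fold or more in the same direction.

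Of the 95 genes, 3 were pan-neuronal, 4 were broad, 13 were cluster-restricted, 18 were non-neuronal, 19 lay in between and 38 were low. Pan-neuronal genes reached 20 CPM in at least 90% of neuronal clusters with a neuronal median at least 2 times the highest non-neuronal cluster. Broad genes passed the first of these conditions, failed the second and fell in neither of the next 2 categories. Cluster-restricted genes had 1 neuronal cluster at 50 CPM or more that stood above every non-neuronal cluster and at least 4 times the neuronal median. Non-neuronal genes had a non-neuronal cluster at 20 CPM or more that stood above every neuronal cluster and at least 3 times the neuronal median. This category was assigned first, so a non-neuronal gene can still reach 20 CPM in most neuronal clusters, as Kcnk1 did. Low genes reached 20 CPM in none of the used clusters. They include Kcnj1, Kcnk15 and Kcnk16 with 0 UMIs, and 61 of the 95 genes had at least 100 UMIs.

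**Figure D1:**
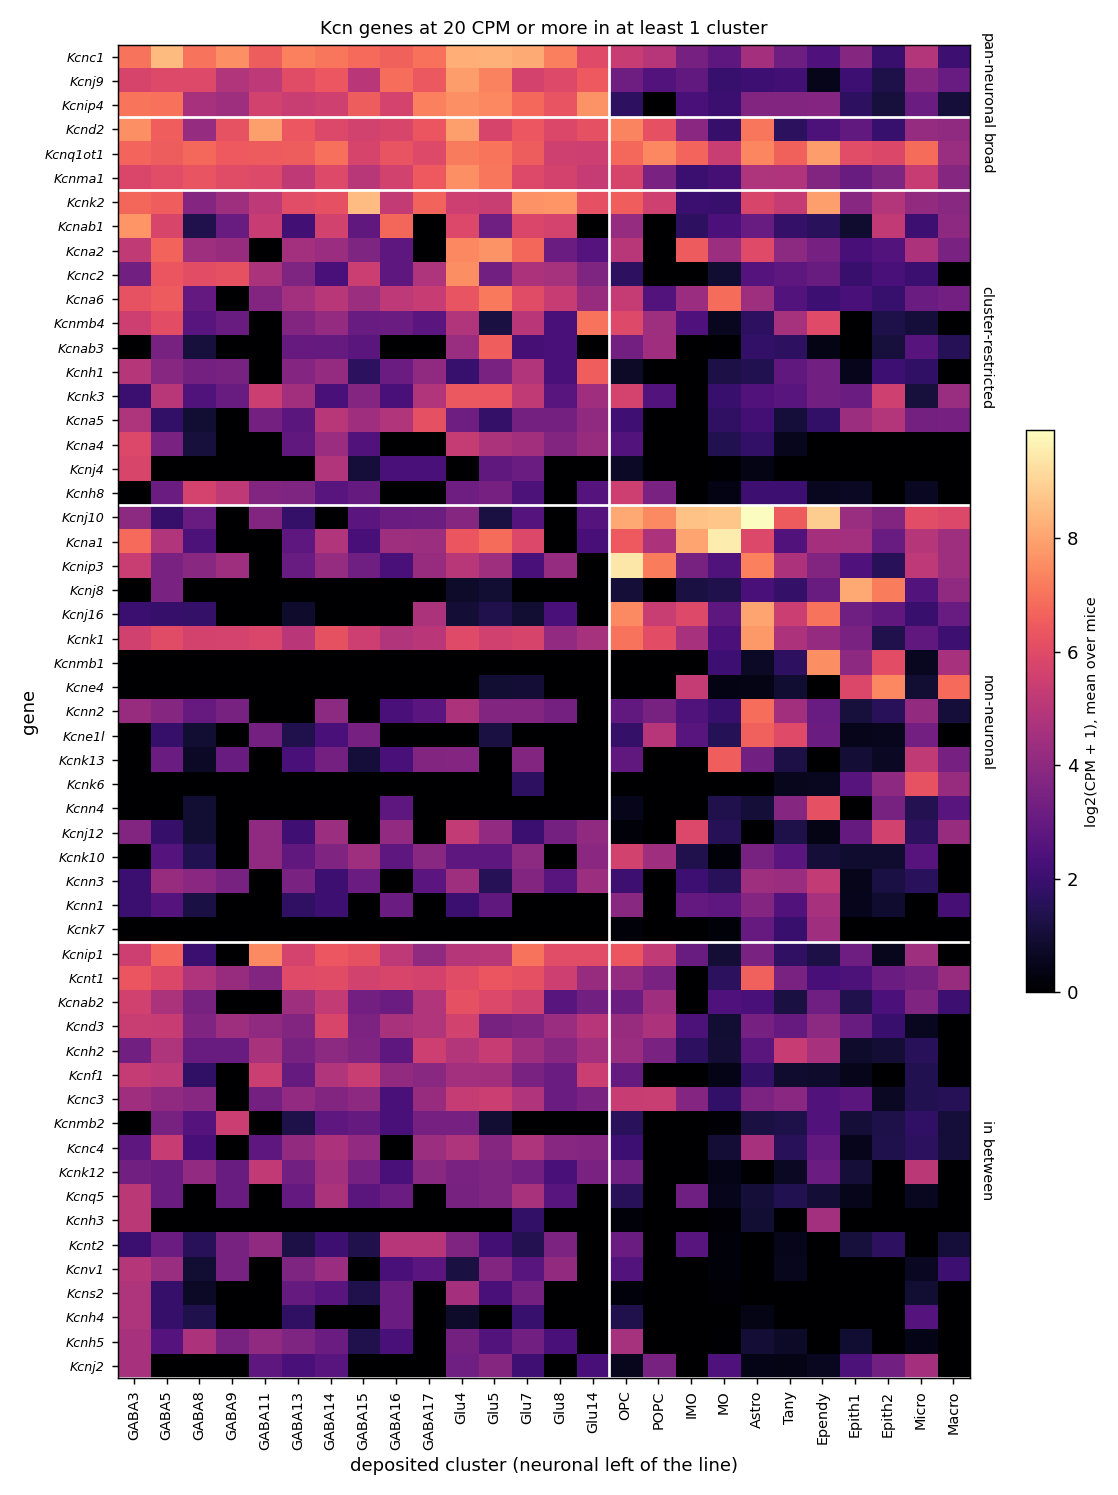
Mean level over mice, as log2(CPM + 1), of Kcn genes that reach 20 CPM in some cluster (rows, grouped by category) in the 26 used clusters (columns, neuronal ones left of the line). The rows of Kcnc1, Kcnj9 and Kcnip4 are each brighter in every neuronal column than in any other column. Kcnj10 is brightest in Astro and Kcna1 in MO, and Kcna1 also shows in several neuronal columns, such as Glu5.

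The 3 pan-neuronal genes belong to 3 families. Kcnc1 encodes the Kv3.1 pore of fast-spiking neurons and ranged over the neuronal clusters from 62.5 ± 29.7 CPM in Glu14 (n = 2) to 359 ± 133 CPM in GABA5 (n = 2), with a median of 137 CPM. In the 5 mice with enough Glu5 cells it stood at 333, 310, 310, 376 and 227 CPM. Glu5, Glu4 (301 ± 171 CPM, n = 4) and Glu7 (284 ± 33.5 CPM, n = 5) overlapped in their mice. The highest non-neuronal level was 40.5 CPM in OPC, and MO was at 6.04 CPM. Kcnc1 was the Kcn gene with the highest level in 8 of the 26 clusters, all of them neuronal. In 2 GABA clusters too small for the mouse rule, it was higher still, with 91 UMIs in the 23 cells of GABA1 (604 CPM, 95% Poisson interval 486 to 741, counting error only) and 70 UMIs in the 18 cells of GABA4 (472 CPM, 368 to 596).

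Kcnip4, an EF-hand KChIP that binds Kv4 channels, had a neuronal median of 89.99 CPM. It was lowest in GABA9 (19.997 ± 28.3 CPM, n = 2) and GABA8 (23.5 ± 10.1 CPM, n = 7) and had its highest mean in Glu14, where the 2 mice had 205 and 208 CPM. Glu4 (193 ± 56.6 CPM, n = 4) and Glu5 (172 ± 43.7 CPM, n = 5) overlapped with Glu14, and both stood above it in food-deprived replicate 2. The highest non-neuronal level of Kcnip4, in Ependy, was 12.6 CPM. Kcnj9 encodes GIRK3, a subunit of the inward rectifiers that G proteins open downstream of inhibitory receptors. It had a neuronal median of 60.5 CPM, reached 20 CPM in all 15 neuronal clusters, and stood highest in Glu4 at 161, 351, 169 and 243 CPM in the 4 mice. In each of those 4 mice Glu4 was the highest cluster for Kcnj9, and the highest non-neuronal level was 12.8 CPM in Micro. The partner GIRK genes Kcnj3 and Kcnj6 were low, with at most 15.0 CPM (Kcnj3, Glu8) and 17.9 CPM (Kcnj6, GABA17).

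The broad genes include Kcnd2, Kcnma1 and Kcnq1ot1. Kcnd2, the Kv4.2 pore of the transient A-type current, had a neuronal median of 75.8 CPM and also 164 ± 58.3 CPM in OPC (n = 8). Kcnma1, the BK pore, had a neuronal median of 60.8 CPM against 52.3 CPM in OPC. Kcnq1ot1, a long RNA transcribed antisense to Kcnq1, had 90.01 CPM as its neuronal median and was highest in Ependy at 230 ± 76.2 CPM (n = 8). Whether counting kept the strands apart is not given, but Kcnq1 itself had 29 UMIs against 4656 for Kcnq1ot1.

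Among the 13 cluster-restricted genes, 6 belong to the Kv1 family or its beta subunits. Kcna2, the Kv1.2 pore of axons, was highest in Glu5 at 128, 329, 90.5, 222 and 235 CPM in 5 mice (201 ± 94.3 CPM). Glu4 was close at 173 ± 43.7 CPM (n = 4), and the 2 clusters overlapped. The neuronal median of Kcna2 was 18.8 CPM, and its highest non-neuronal level was 89.4 CPM in IMO. Kcnab3, a Kv beta subunit, had the highest fold among the restricted genes with a neuronal median above 0, since its Glu5 level of 93.2 ± 42.6 CPM (n = 5) was 25.6 times the neuronal median. Glu5 was the highest cluster for Kcnab3 in 5 of 5 mice, at 38.0, 120, 58.2, 136 and 114 CPM, and the next cluster was POPC at 20.3 CPM.

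Kcna6, the Kv1.6 pore, was at 140 ± 21.1 CPM in Glu5 (n = 5), close to the 114 ± 43.9 CPM of MO (n = 8), and the 2 ranges of mice overlapped. Kcnab1, a Kv beta subunit that confers inactivation, was at 177 and 238 CPM in the 2 mice with enough GABA3 cells and at 160 and 55.5 CPM in GABA16. Kcna4, a Kv1 pore that inactivates on its own, also had its highest mean in GABA3 (59.2 ± 16.4 CPM, n = 2). Glu4 overlapped with it at 38.8 ± 10.1 CPM (n = 4). In food-deprived replicate 1, Kcna4 was at 48.4 CPM in Glu4 and 47.7 CPM in GABA3. Kcna5 was highest in GABA17 (70.5 ± 4.73 CPM, n = 2). By mean level alone, Glu5 thus led for Kcna2, Kcna6 and Kcnab3, and GABA3 for Kcnab1 and Kcna4.

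Kcnk2, the mechanosensitive K2P channel TREK-1, was highest in GABA15. Its level there was 350, 341, 283 and 486 CPM in the 4 mice (365 ± 85.9 CPM), above every other neuronal cluster in each of them. In normal replicate 2, Ependy stood higher still at 451 CPM. The neuronal median was 70.1 CPM, and Kcnk2 was not confined to neurons, since Ependy had 240 ± 126 CPM (n = 8). The highest Kcnk2 level of any named cluster was in a smaller one, Glu11, with 189 UMIs in 42 cells (745 CPM, 95% Poisson interval 643 to 859, counting error only). Only 1 mouse had 10 cells of Glu11, so this pooled value has no spread over mice to set beside the means above. Kcnk3, the acid-sensitive K2P channel TASK-1, was at 82.7 ± 73.8 CPM in Glu4 (n = 4) and 82.1 ± 29.9 CPM in Glu5 (n = 5), so that no order of the 2 holds beyond their spread.

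Kcnc2, the Kv3.2 pore, was highest in Glu4 at 116, 386, 113 and 140 CPM in the 4 mice, against a neuronal median of 25.1 CPM. Normal replicate 4 stood apart in Glu4: it had 13 such cells, a summed Kcn level of 4381 CPM against 2488 to 2890 CPM in the other 3 mice, and the highest value of 9 of the 11 Kcn genes that peak in Glu4. Without it, Kcnc2 in Glu4 was 123 ± 15.0 CPM (n = 3), still above GABA5 at 79.2 CPM, and Kcnj9 was 191 ± 44.8 CPM. Kcnk3 in Glu4 was then 46.0 ± 9.49 CPM, and Kcnma1 at 133 CPM was close to its level in Glu5, 135 CPM.

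Glu14 was the highest cluster for 2 restricted genes. Kcnmb4, the neuronal BK beta subunit, was at 83.5 and 176 CPM in its 2 mice, 16.4 times the neuronal median of 7.93 CPM, with a mean of 61.6 CPM in Ependy, where normal replicate 2 stood at 226 CPM. Kcnma1, the pore it binds, was at 39.3 CPM in Glu14. Kcnh1, the Kv10.1 pore, was at 91.1 and 93.4 CPM in the same mice. Kcnh8, a Kv12 pore, was highest in GABA8 at 50.9 ± 25.3 CPM (n = 7), close to the 44.8 ± 24.7 CPM of OPC (n = 8). Kcnj4, a Kir2 pore with a neuronal median of 0 CPM, was at 17.7 and 89.4 CPM in the 2 mice of GABA3. The category was not equally stable: of 18 alternative rules, Kcna4, Kcna6 and Kcnh8 kept it under 10, Kcna5 and Kcnh1 under 11, Kcnj4, Kcnk3 and Kcnmb4 under 13, and Kcnab3 under 17. Kcnh8 lost it when normal replicate 4 or any 1 of the 3 food-deprived mice was left out. By the fold condition, Kcnk3 at 4.06 and Kcna6 at 4.08 times the neuronal median lay just inside the category, and Kcnab2 at 3.53 and Kcnip1 at 3.40 times just outside.

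**Figure D2:**
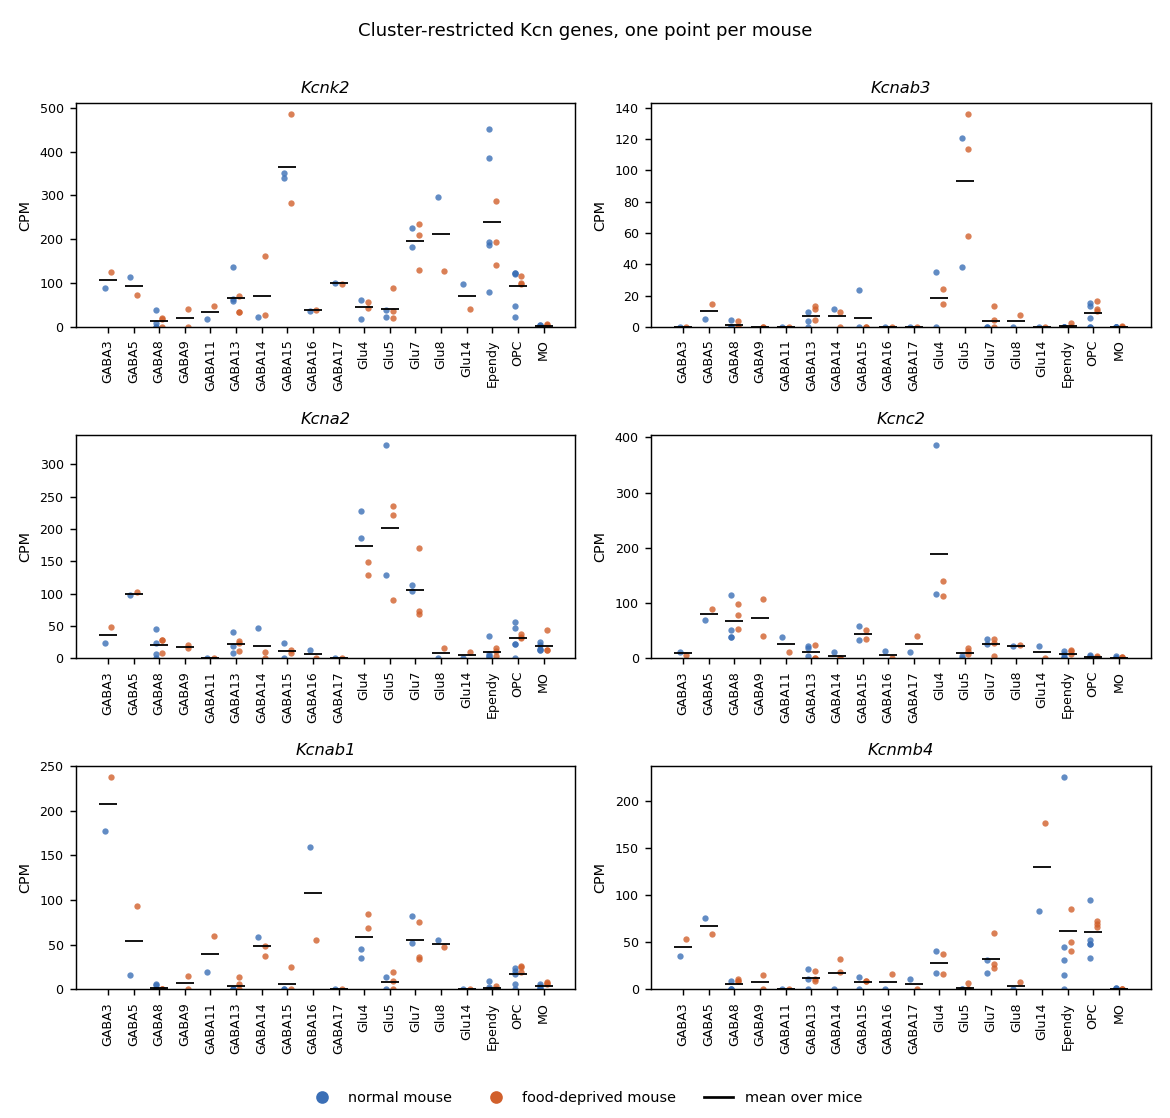
Level (CPM, linear axes from 0) of 6 cluster-restricted Kcn genes in the used neuronal clusters and in Ependy, OPC and MO, with 1 point per mouse and a bar at the mean. Kcnab3 is highest in Glu5, Kcnk2 is high in GABA15 and Ependy, and 1 normal mouse stands above the others for Kcnc2 in Glu4.

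Glutamatergic and GABAergic neurons were also set side by side within each mouse, for the 29 Kcn genes that passed the filter on low counts in both classes in 6 mice. In the sums over all Glu and all GABA clusters, 9 Kcn genes were higher in Glu in every mouse, against 10.2% of all 8707 genes, and 0 were lower in every mouse, against 8.02%. The 9 are Kcna2, Kcna6, Kcnk3, Kcnk2, Kcnip4, Kcnj9, Kcnma1, Kcnd2 and Kcnc1. Kcnip4 averaged 149 ± 12.3 CPM in Glu and 69.9 ± 11.4 CPM in GABA, scaled to TMM-adjusted totals, and Kcna2 89.3 ± 27.8 CPM and 26.8 ± 8.89 CPM. The difference for Kcnip4 on the log2(CPM + 1) scale was 1.09 ± 0.30 (SD over 6 mice). The neuron markers Snap25, Syt1, Stmn2 and Rbfox3 were also higher in Glu than in all neurons in each of these mice. Their sums were 2962 to 4552 CPM in Glu and 2752 to 3845 CPM in all neurons, and their part in these differences was not tested.

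Summed over all 95 genes, Kcn transcripts ranged over the used neuronal clusters from 958 ± 164 CPM in GABA8 (n = 7) to 3140 ± 845 CPM in Glu4 (n = 4). Glu5 (2420 ± 334 CPM), GABA3 (2351 ± 129 CPM), GABA5 (2132 ± 255 CPM) and Glu7 (2127 ± 332 CPM) came next. GABA15 was at 1344 ± 57.6 CPM with its 4 mice between 1273 and 1414 CPM. Across the 15 clusters the sum had a Spearman correlation of 0.77 with the summed level of 4 neuron markers (Snap25, Syt1, Stmn2, Rbfox3) and of -0.05 with the median UMIs per cell, points that share their libraries. Among non-neuronal clusters, Astro (2722 ± 330 CPM, n = 6) and OPC (2554 ± 191 CPM, n = 8) held as much as these neurons, and Epith1 (644 ± 86.1 CPM, n = 6) and Macro (490 ± 186 CPM, n = 5) held the least.

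**Figure D3:**
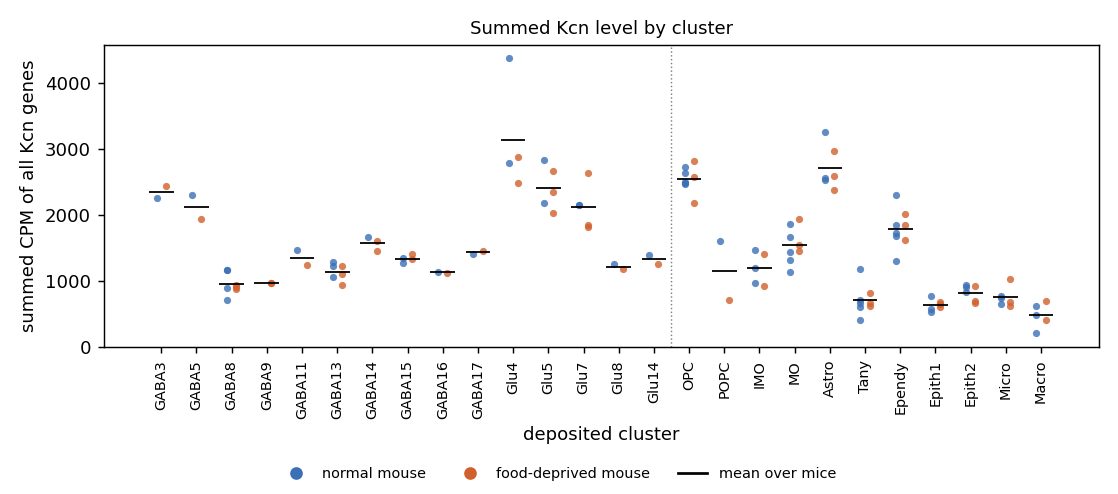
Summed level of all 95 Kcn genes (CPM, linear axis from 0) by cluster, with 1 point per mouse, blue for normal and orange for food-deprived mice, and a bar at the mean. Among neurons Glu4 (3140 CPM), Glu5, GABA3, GABA5 and Glu7 (2127 CPM) have the highest means, and Astro and OPC the highest of the other clusters.

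Of the 18 non-neuronal genes, 5 were highest in Astro, a cluster in which the astrocyte markers Agt, Slc1a2, Aqp4 and Ntsr2 summed to 10257 CPM. Kcnj10, the Kir4.1 pore, stood there at 1021, 1468 and 739 CPM in the normal mice and at 668, 1054 and 787 CPM in the food-deprived mice (956 ± 295 CPM, n = 6), and the 2 groups overlapped. Kcnj10 was also high in Ependy (464 ± 123 CPM, n = 8), MO (417 ± 121 CPM, n = 8), IMO (395 ± 145 CPM, n = 5) and OPC (276 CPM), and lower in Tany (88.9 CPM). It had the most CPM of the Kcn genes in 4 clusters. In neurons its median was 5.19 CPM and its highest cluster, GABA3, was at 14.8 CPM. Astrocyte markers were present in the neuronal clusters as well, at 11.98 to 432 CPM, and in 7 of 15 of them Kcnj10 per unit of marker was above its ratio in Astro.

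Kcnj16, the Kir5.1 partner that forms pH-sensitive channels with Kir4.1, was at 262 ± 113 CPM in Astro (n = 6), 180 ± 44.1 CPM in OPC (n = 8) and 128 ± 38.7 CPM in Ependy (n = 8). Unlike Kcnj10, it was almost lacking in MO, at 6.15 CPM. Kcnk1, the weak inward rectifier TWIK-1, was at 224 ± 91.6 CPM in Astro and 130 ± 26.9 CPM in OPC, with a neuronal median of 47.4 CPM. It reached 20 CPM in 14 of the 15 used neuronal clusters, so it is not confined to non-neuronal cells. Per unit of astrocyte marker it stood above its ratio in Astro in 15 of 15 neuronal clusters. Kcnn2, an SK pore, was at 120 ± 25.8 CPM in Astro against at most 25.6 CPM in a neuronal cluster. Kcne1l, a MinK-related subunit, was at 96.3 ± 16.2 CPM in Astro and 61.1 ± 33.6 CPM in Tany, where Kcnj10 was at 88.9 CPM. Kcnt1, a sodium-activated channel that fell in between, also had its highest level in Astro, 94.7 CPM, above its neuronal median of 54.1 CPM.

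The 3 clusters of the oligodendrocyte lineage differed in their Kcn genes. OPC led for the precursor markers Pdgfra, Cspg4 and Olig1 (5953 CPM in sum), IMO for Fyn, Bcas1, Enpp6 and Itpr2 (9671 CPM), which mark newly formed oligodendrocytes, and MO for the myelin genes. Kcnip3, which encodes the KChIP3 (calsenilin, DREAM) protein, stood at 685 ± 155 CPM in OPC (n = 8), where it was the highest cluster in 8 of 8 mice, between 528 and 1005 CPM. IMO had 10.1 CPM and MO 4.69 CPM of Kcnip3, and Astro had 156 ± 30.5 CPM (n = 6). POPC, the proliferating cluster with Top2a and Mki67, had 206 and 90.5 CPM in its 2 mice. Kcnk10 (TREK-2) and Kcnd2 were likewise highest in OPC within the lineage, Kcnk10 at 48.9 ± 15.4 CPM against 1.59 CPM in IMO and 0.14 CPM in MO.

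Kcna1, the Kv1.1 pore, had the opposite order. It was at 85.6 CPM in OPC, 261 ± 84.0 CPM in IMO (n = 5) and 746 ± 202 CPM in MO (n = 8), and this order held in each of the 5 mice with all 3 clusters. MO was the highest cluster for Kcna1 in 8 of 8 mice, at 531 to 912 CPM in normal mice against 654, 1061 and 959 CPM after food deprivation. Kcna1, Kcnj10 and Kcna6 together made up 82.3% of the summed Kcn level in MO. Kcna1 also reached 117 ± 54.0 CPM in Glu5 (n = 5). A list of 5 myelin markers, among them Mbp, Mog, Mag and Mobp, summed to 107290 CPM in MO and 572 CPM in Glu5, so that Kcna1 stood at 6.95 CPM per 1000 CPM of these markers in MO and at 205 in Glu5.

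Kcnj12, the Kir2.2 pore, had its highest level of the lineage in the intermediate stage, with 58.0 ± 27.5 CPM in IMO (n = 5) against 0.13 CPM in OPC and 1.90 CPM in MO. The 5 mice had between 31.6 and 102 CPM in IMO, which was the highest non-neuronal cluster for Kcnj12 in 3 of them. The highest neuronal level of Kcnj12 was 37.8 CPM in Glu4. Kcna2 also had its highest level of the lineage in IMO, 89.4 CPM, against 31.1 CPM in OPC and 19.6 CPM in MO. Kcnk13, the K2P channel THIK-1, was at 94.1 ± 47.7 CPM in MO (n = 8), 0 CPM in IMO and 35.5 ± 27.8 CPM in Micro (n = 6). Kcnj16 was lower at each step from OPC to IMO to MO in 5 of 5 mice.

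**Figure D4:**
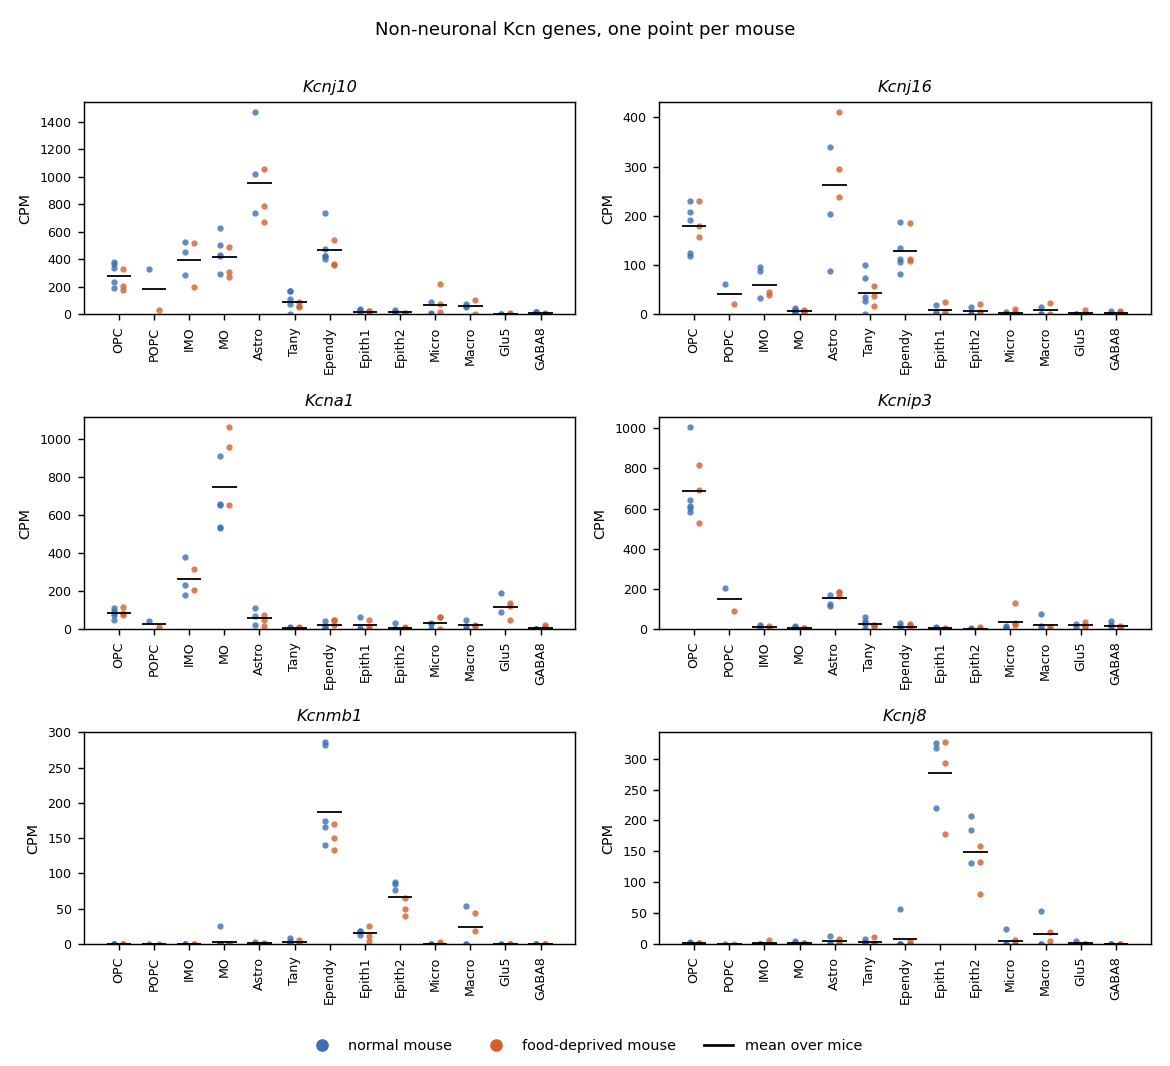
Level (CPM, linear axes from 0) of 6 non-neuronal Kcn genes in the 11 used non-neuronal clusters and in Glu5 and GABA8, with 1 point per mouse and a bar at the mean. Kcnj10 spans Astro, Ependy and the oligodendrocyte lineage, Kcnip3 marks OPC, Kcna1 marks MO, Kcnmb1 marks Ependy and Kcnj8 marks the Epith clusters, with normal and food-deprived mice intermixed for most genes.

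The ciliated cells of the ventricle wall, Ependy, were the highest cluster for 5 non-neuronal genes: Kcnmb1, Kcnn4, Kcnn3, Kcnn1 and Kcnk7. Kcnmb1, the BK beta subunit known from smooth muscle, was at 188 ± 61.1 CPM in Ependy (n = 8), the highest cluster in 8 of 8 mice, at 0 CPM in every used neuronal cluster, and at 67.2 ± 19.4 CPM in Epith2 (n = 6). A count of 0 there sets only an upper limit at this depth. Kcnn4, the intermediate-conductance calcium-activated channel, was at 70.5 ± 51.9 CPM in Ependy and 12.9 CPM in Tany, and Astro, Tany and Ependy stood in this order in 5 of 6 mice. Kcnn3 (37.6 ± 25.0 CPM), Kcnn1 (23.9 ± 14.0 CPM) and Kcnk7 (20.4 ± 17.6 CPM) were lower, and each was at 0 CPM in 1 mouse. Kcnk7 lost its category under 9 of 18 alternative rules.

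The vascular clusters Epith1 and Epith2 both carried endothelial markers (Cldn5, Flt1, Slco1c1), at 5568 and 3077 CPM, and mural markers (Rgs5, Vtn, Pdgfrb, Acta2), at 4002 and 9390 CPM, so that neither can be read as endothelium or mural cells alone. Kcnj8, the Kir6.1 pore of vascular ATP-sensitive channels, was at 277 ± 62.9 CPM in Epith1 and 149 ± 44.8 CPM in Epith2, and was higher in Epith1 in 6 of 6 mice. Its sulfonylurea receptor partner Abcc9 was at 102 ± 20.2 CPM and 41.1 ± 17.9 CPM. Kcne4, a MinK-related inhibitor of Kv1 channels, was higher in Epith2 than in Epith1 in 6 of 6 mice, 171 ± 13.6 CPM against 57.1 ± 16.7 CPM. Kcne4 was not confined to these clusters, since Macro had 112 CPM, where it was the leading Kcn gene. Epith2 was the highest non-neuronal cluster for Kcne4 in 4 of 6 mice. Kcnk6, the K2P channel TWIK-2, was highest in Micro at 74.4 ± 29.5 CPM (n = 6). The neuronal ATP-sensitive pair was low, with Kcnj11 at most at 17.4 CPM (Glu8) and Abcc8 at 18.4 CPM (Glu4).

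Genes without the prefix that work with these channels were read in the same way. Of 29 such genes, the Kv4 partner Dpp6 had a neuronal median of 217 CPM and 288 ± 61.9 CPM in OPC. Slc12a5 (KCC2), the neuronal potassium-chloride exporter, had a neuronal median of 123 CPM, and Slc12a2 (NKCC1) was highest in MO at 440 ± 148 CPM. Aqp4, the water channel of astrocyte endfeet, followed Kcnj10 in Astro (1270 ± 604 CPM) and Ependy (503 ± 113 CPM). The BK gamma genes Lrrc26 and Lrrc52 stayed under 1 CPM in all used clusters.

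For subunits known to assemble, levels were ranked across clusters, as descriptions over points that share libraries. Kcnj10 and Kcnj16 had a Spearman correlation of 0.77 over 26 clusters and 0.15 over the 15 neuronal ones. Kcna1 and Kcna2 had 0.74 over the neuronal clusters, as did Kcna2 and Kcnab2, and over all 26 these pairs had 0.65 and 0.40. Kcnma1 and Kcnmb4 had -0.15 over the neuronal clusters and 0.27 over all. Kcnj6 and Kcnj9 had -0.06 and 0.52, Kcnj8 and Abcc9 0.11 and 0.59, and Kcnj11 and Abcc8 0.02 and 0.32. Not all pairs that were ranked are given here. Kcnc1 and Kcnc2 had 0.73 over all clusters and 0.32 among neurons.

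Kcnj9 and Kcnj10 are next to each other among the protein-coding genes of the RefSeq table and lay in opposite categories. Of 10 such neighbouring pairs of Kcn genes, this was the only one that joined a pan-neuronal to a non-neuronal gene. Kcnj9 had a neuronal median of 60.5 CPM and 3.16 CPM in Astro, and Kcnj10 5.19 CPM and 956 CPM. Their promoters, 250 bases before to 50 after the start, are shown because these genes share a locus and not a pattern, with matches to TATAAA or GGGCGG on either strand in capitals (RefSeq, GRCm38.p6, 5′ to 3′ on the strand of the gene).
Kcnj9, chr1:172329273-172329572, minus strand: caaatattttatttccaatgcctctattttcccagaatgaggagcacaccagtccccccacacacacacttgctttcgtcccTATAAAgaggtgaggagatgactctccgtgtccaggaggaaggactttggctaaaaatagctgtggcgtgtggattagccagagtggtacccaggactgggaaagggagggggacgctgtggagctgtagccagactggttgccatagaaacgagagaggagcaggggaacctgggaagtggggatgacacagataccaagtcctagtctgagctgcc
Kcnj10, chr1:172340960-172341259, plus strand: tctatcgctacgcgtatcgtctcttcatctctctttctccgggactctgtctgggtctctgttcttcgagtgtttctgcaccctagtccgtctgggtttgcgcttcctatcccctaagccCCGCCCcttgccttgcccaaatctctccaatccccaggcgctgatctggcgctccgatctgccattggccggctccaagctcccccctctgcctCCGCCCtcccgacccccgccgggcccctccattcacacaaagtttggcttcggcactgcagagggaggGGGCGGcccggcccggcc

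The Kcnj9 promoter holds 1 TATAAA and 0 GGGCGG, with 5 CG pairs and 52.3% G or C. The Kcnj10 promoter holds 0 TATAAA and 3 GGGCGG, with 21 CG pairs and 63.7% G or C. Over all 32851 promoters of the table, 13.6% hold TATAAA, 35.7% hold GGGCGG, and the median has 7 CG pairs. A match is a run of letters and not a measured binding site. Of the 95 Kcn genes, 69 have a promoter in the table.

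The other neighbouring pairs did not join these 2 categories. Kcna5, Kcna1 and Kcna6 follow each other on chromosome 6, where Kcna1 was highest in MO, Kcna6 in Glu5 with MO next, and Kcna5 in GABA17. Kcnj16 and Kcnj2 are adjacent on chromosome 11, with Kcnj16 at 262 CPM in Astro and Kcnj2 at no more than 23.7 CPM (GABA3). Kcnip1 and Kcnmb1 are adjacent on the same chromosome, the first highest in GABA11 at 176 CPM and the second in Ependy.

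The 19 genes in between include several with a moderate neuronal level. Kcnip1 had a neuronal median of 51.7 CPM and Kcnt1 of 54.1 CPM. Kcnf1, an electrically silent Kv5 subunit, had 21.4 CPM in neurons and less elsewhere. The 38 low genes include Kcnq3 (at most 17.3 CPM in Glu4), Kcnb2 (19.3 CPM in Glu4) and Kcng2 (19.4 CPM in GABA17). Most silent subunits of the Kv6, Kv8 and Kv9 families were low.

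By feeding state, no Kcn gene was called in all neurons. Counts were summed per mouse over all GABA, Glu and Hista cells, and mice with at least 20 neurons entered, which left 4 normal and 3 food-deprived mice. Of the 95 Kcn genes, 50 passed the filter on low counts, and edgeR's quasi-likelihood F test with Benjamini-Hochberg adjustment called 0 of them at 0.05, as it called 0 of all 10923 genes tested (0.0%). At an unadjusted p under 0.05 there were 0 Kcn genes against 232 of all genes (2.12%), and DESeq2 also called 0 Kcn genes. In 0 of the 50 genes did the food-deprived mice lie wholly above or wholly below the normal mice, against 2.19% and 1.82% of all genes. Log2 fold changes of food-deprived over normal had a median of 0.02 over the 50 genes, with 26 above and 24 below 0, and of -0.00016 over all genes tested. They ran from -1.01 (Kcnu1) to 0.73 (Kcnab3), with standard errors (SE) of 0.155 to 0.595. Each SE given with a log2 difference by feeding state was derived, as the absolute fold change on the log2 scale over the square root of F. It is not a separate estimate of the model.

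The Kcn genes with the highest level in all neurons were then read one by one, in CPM scaled to TMM-adjusted totals. Kcnc1 was at 135, 256, 166 and 197 CPM in the normal mice (188 ± 51.7 CPM) and at 166, 182 and 156 CPM in the food-deprived mice (168 ± 13.6 CPM), a log2 difference of -0.21 ± 0.21 (SE). Each food-deprived mouse lay within the range of the normal ones. Kcnk2 was at 243, 96.1, 116 and 148 CPM in normal mice against 87.3, 77.9 and 160 CPM after food deprivation, a log2 difference of -0.36 ± 0.32. The highest of these values belongs to normal replicate 2, in which GABA15, the cluster with high Kcnk2, made up 36.6% of 41 neurons, against 0.75% to 8.54% in the other 6 mice. Single mice moved both values: Kcnc1 was at -0.03 without normal replicate 3, and Kcnk2 at -0.17 without normal replicate 2 and -0.73 without food-deprived replicate 3.

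Kcnip4 was at 74.2, 98.5, 98.4 and 105 CPM in the normal mice and at 111, 116 and 95.8 CPM in the food-deprived mice. Its log2 difference of 0.145 ± 0.155 had the smallest standard error of the 50 genes, and the groups overlapped. Kcnj9 was at 77.2 ± 7.24 CPM in normal mice against 75.1 ± 19.4 CPM after food deprivation. Kcnd2 (-0.33 ± 0.26) and Kcnma1 (-0.16 ± 0.22) had lower and Kcnip1 (0.15 ± 0.17) higher fitted levels after food deprivation, with the groups overlapping for each. Kcnd2 and Kcnma1 both had their lowest value in normal replicate 2, at 33.7 CPM each. Without food-deprived replicate 2 Kcnd2 was at -0.58, and without food-deprived replicate 1 Kcnma1 was at -0.02. Kcnq1ot1 differed by -0.13 ± 0.20 and Kcnt1 by -0.12 ± 0.30.

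Within batches, the log2(CPM + 1) difference of Kcnc1 was -0.62 in batch 1 and 0.14 in batch 2, that of Kcnd2 was -0.71 and 0.23, and that of Kcnj9 was -0.20 and 0.31. Kcnip4 (0.17 and 0.24), Kcnk2 (-0.14 and -0.57), Kcnq1ot1 (-0.37 and -0.19) and Kcnma1 (-0.37 and -0.06) had the same sign in both. Kcnip1 (0.41 and -0.18) and Kcnt1 (0.03 and -0.09) did not. The other batches hold 1 state each. In a sum over neurons, a change in the mix of clusters and a change within cells cannot be told apart. GABA3 ranged from 0% to 12.1% of neurons between mice and Glu4 from 0% to 10.95%. The myelin markers in neurons were at 302 to 733 CPM in normal mice against 237 to 985 CPM after food deprivation, with all 5 detected, and their part in these values was not tested.

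**Figure D5:**
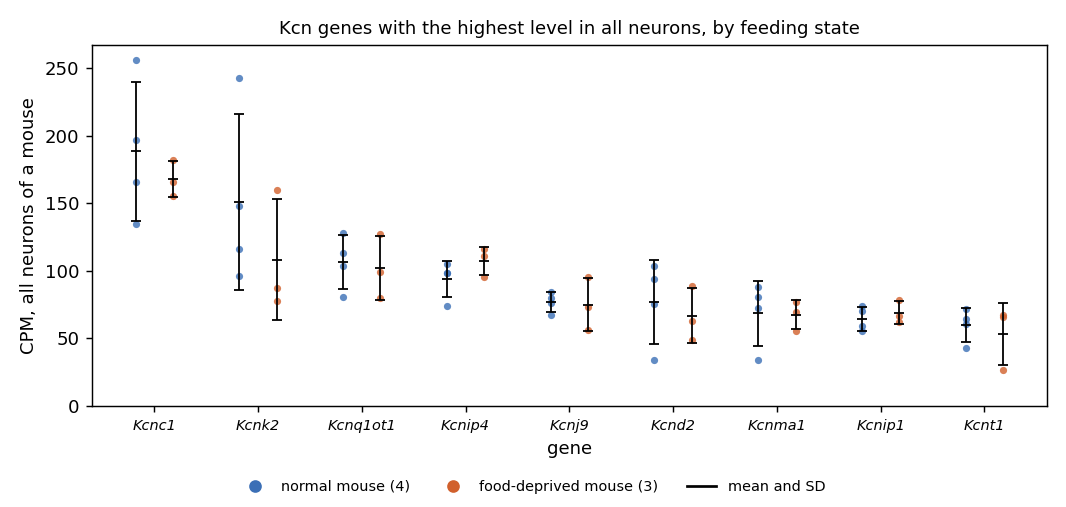
Level (CPM, linear axis from 0) in all neurons of each mouse for 9 of the 10 Kcn genes with the highest mean, in 4 normal (blue) and 3 food-deprived (orange) mice, with mean and SD. The points of the 2 groups overlap for each of the 9 genes.

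In GABA neurons 32 Kcn genes passed the filter and 0 were called (0.0% of all 9508 genes), with 0 at an unadjusted p under 0.05 against 1.82% of all genes. In Glu neurons 34 passed and 0 were called (0.0% of 8945 genes). At an unadjusted p under 0.05, 1 of the 34 stood in Glu, Kcnd2 (3.58% of all genes), which was named after its value was seen. Kcnd2 in Glu was at 125, 117 and 107 CPM in the normal mice and at 67.0, 93.5 and 49.3 CPM in the food-deprived mice, without overlap, a log2 difference of -0.69 ± 0.23 (SE; edgeR unadjusted p = 0.012, adjusted p = 1.0). In Glu, 4 of 34 Kcn genes, Kcnd2, Kcnd3 and Kcnma1 among them, stood lower in each food-deprived mouse than in any normal one, against 4.85% of all genes, and 1, Kcnip4, stood higher in each (138 ± 4.24 and 159 ± 5.28 CPM), against 4.3%. Glu4 made up 0.67% of neurons in normal replicate 5 and 0% in food-deprived replicate 3. Neuron markers in Glu were at 2962 to 4508 CPM in normal mice against 4118 to 4552 CPM after food deprivation, and myelin markers at 295 to 565 and 345 to 1074 CPM. Their part in these values was not tested. The response of Glu minus that of GABA was called for 0 of 45 Kcn genes (0.0% of 10012 genes), with 1 at an unadjusted p under 0.05, Kcnj5 (3.6% of all genes). For Kcnd2 that difference was -0.47 ± 0.25.

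In the 8 non-neuronal classes, 0 Kcn genes were called, as were 0 of all genes in each of Astro, Tany, Ependy, OPC, IMO, MO, Epith and Micro (0.0%). On the TMM-adjusted scale, Kcnj10 in Astro was at 1141, 1596 and 790 CPM in normal mice against 738, 1182 and 849 CPM after food deprivation, a log2 difference of -0.36 ± 0.30 (SE). Kcnj16 in Astro differed by 0.51 ± 0.39 and Kcnk1 by 0.67 ± 0.35, each with overlapping groups. Kcna1 in MO was at 672 ± 163 CPM in 5 normal mice, with 907 ± 229 CPM in 3 food-deprived mice (0.42 ± 0.22), and Kcnip3 in OPC differed by 0.18 ± 0.18. Kcnmb1 in Ependy was at 324, 192 and 189 CPM in normal mice against 164, 147 and 185 CPM after food deprivation (-0.51 ± 0.28), without overlap, 1 of 10 Kcn genes lower without overlap against 5.55% of all genes (4.84% of all genes were higher without overlap). Normal replicates 1 and 2, with 13 and 10 Ependy cells, were not in that fit and had 140 and 282 CPM on the plain scale. Kcnmb1 in Epith also stood lower in all food-deprived mice (43.7 ± 0.92 and 30.8 ± 4.32 CPM), 1 of 8 Kcn genes lower against 4.95% of all genes and 0 higher against 4.5%.

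In Micro, Kcna1 had an unadjusted p under 0.05 and was named after its value was seen. Kcna1 in Micro was at 32.3, 26.1 and 0 CPM in 3 normal mice, with 68.0 and 74.8 CPM in 2 food-deprived mice (1.39 ± 0.51), 1 of 8 Kcn genes higher without overlap against 10.2% of all genes, and 0 lower against 7.29%. Food-deprived replicate 3, with 16 Micro cells, was not in that fit and had Kcna1 at 0 CPM on the plain scale, so that with it the groups overlap. The 5 myelin markers in Micro were at 7418, 1089 and 536 CPM in those normal mice, with 4810 and 5089 CPM in those food-deprived mice, and their part in the Kcna1 value was not tested. Of the partner genes, 23 of 29 passed the filter in all neurons, 0 were called and 0 had an unadjusted p under 0.05, with 10 above and 13 below 0 and a median log2 difference of -0.01. In Astro, Aqp4 was the 1 of 12 partner genes past the filter with an unadjusted p under 0.05, against 183 of all 5837 genes tested there, and it is named after its value was seen. It was at 2433, 1583 and 1809 CPM in normal mice against 725, 979 and 825 CPM after food deprivation, without overlap, a log2 difference of -1.21 ± 0.26 (SE; edgeR unadjusted p = 0.00054, adjusted p = 1.0), so that it was not called. The 4 astrocyte markers, of which Aqp4 is 1, summed in Astro to 8164 to 10620 CPM in normal mice against 9951 to 12760 CPM after food deprivation.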

How the data were processed

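Hypothalamic cells of 8 mice were profiled by Drop-seq. The authors deposited a merged table of UMI counts per gene and cell and a table of cluster names; the genome build was mm9, per the submitters' processing notes, and the aligner is not given in the sources used here. Cells were joined to libraries by batch, feeding state and barcode: 161 cells whose barcode fitted more than 1 library were left out. Counts were compared but not used for the join, although by counts each of the 161 equalled exactly 1 candidate library. Doublets were not called. Depth was 290861 to 12570644 UMIs per mouse, and Poisson intervals cover counting error only.

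Cluster levels are CPM on plain totals averaged over mice with 10 or more cells. For feeding state, counts were summed per mouse and class (20 or more cells), filtered with filterByExpr, scaled by TMM and tested with edgeR 4.0.16 (quasi-likelihood F test, limma 3.58.1, R 4.3.3), with p-values adjusted by Benjamini-Hochberg over all genes tested. The script was tested on simulated data. Alternatives were DESeq2 1.42.0, other filters and cell minimums, library kinds, a replicate block and leaving out each mouse. The labels give the batch, and in batches 1 and 2 the 2 mice had correlated deviations of 0.46 and 0.09 over 7208 genes, against -0.47 to 0.46 for other pairs.

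Named in the feeding comparison were the 10 Kcn genes with the highest mean in neurons and any called gene; genes named for an unadjusted p or for groups without overlap were chosen after their values were seen. The members and lists were chosen with earlier results of these data known, and the promoters after the values. Tables of RefSeq matched 94 of 95 symbols. Results of some named genes are not reported here.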

Additional observations from a re-analysis of the deposited data

Results flagged for a closer look

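Of 14 groups of at least 4 mice tested, 1 held a sample far from the others, and chance flags about 1 in 20 groups. In MO, Kcna1 stood at 951.9 CPM (TMM-adjusted) in normal replicate 4, while the other 4 normal mice had 542.7 to 647.4 CPM. The 3 food-deprived mice had 651, 1092 and 978 CPM in the same fit.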

How the results depend on the processing

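In every alternative run, 0 Kcn genes were called for feeding state in any class. With the batch as a replicate block, 0 Kcn genes and 8 of all genes were called in neurons. Leaving out 1 mouse moved the log2 differences in neurons by over 1.5 times for most named genes: Kcnk2 ran from -0.733 to -0.17, Kcnc1 from -0.296 to -0.0253, Kcnd2 from -0.581 to -0.17, Kcnma1 from -0.264 to -0.0245, Kcnip4 from 0.0934 to 0.217 and Kcnip1 from 0.0392 to 0.227, without a change of sign. Other values changed sign. Kcnq1ot1 ran from -0.307 to 0.0308 with 1 mouse left out (the highest without food-deprived replicate 1), Kcnj9 from -0.265 to 0.09 (without food-deprived replicate 3) and Kcnt1 from -0.305 to 0.16 (without food-deprived replicate 3), with 0.0027 without normal replicate 4. Kcnj9 was also at 0.0489 with the replicate block, 0.00542 with the block in depleted libraries and 0.075 in retained libraries, and Kcnip1 at -0.205 in retained libraries. The cause was not tested. The 13 cluster-restricted genes became 8 with each fold multiplied by 1.5, 20 with it divided, 6 with the minimum level doubled, 5 with 20 cells per mouse, 7 in normal mice and 3 in depleted libraries, and 9 to 13 with 1 mouse left out. Members changed as well: the 7 in normal mice held 5 of the 13, with Kcnd2 and Kcnd3 gained. With 5 cells per mouse, 18 genes qualified, 10 of them among the 13. The 3 pan-neuronal genes became 1 with the level doubled, and Kcnip4 left that category in depleted libraries. Fewer mice and clusters enter some of these. The Glu4 levels without normal replicate 4 were added after seeing the data. Several clusters rest on 2 mice, which limits their SD.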

Other observations

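In the 2309 cells that the authors left without a cluster name, Kcnc1 was the leading Kcn gene at 208 CPM and the summed Kcn level was 1584 CPM. Glu11, with 42 cells, also had Kcnc1 at 158 CPM (95% Poisson interval 113 to 215, counting error only).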
